A study of Mus musculus with 3 samples.

Results

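The 10 genes described here encode membrane proteins that move sugars, peptides and amino acids across the intestinal epithelium: *Slc5a1*, *Slc2a1*, *Slc2a2*, *Slc2a5*, *Slc15a1*, *Slc6a19*, *Slc7a5*, *Slc7a8*, *Slc3a1* and *Slc3a2*. They were chosen by name, and all 10 were found, each on 1 row, among the 27998 genes of the deposited tables. Their levels were followed over enterocytes, crypt cells and adenoma cells. Single-cell RNA sequencing with 3′ molecule counting had been run on EpCAM-positive epithelial cells of the small intestine of C57BL/6 mice, with 1 library for each of 3 groups. EpCAM is an adhesion molecule carried by epithelia. The first library was labelled WT. The library labelled *LApc* came from *Lgr5-CreERT2;Apc fl/fl* and the library labelled *LApcL* from mice with these same alleles that also carried *Lef1 fl/fl*. This Cre is made where *Lgr5* is on, in stem cells of the crypt, so that the floxed genes can be lost in stem cells and their progeny while other crypts stay unrecombined. Tamoxifen had been given in all 3 groups, in 2 doses of 2 mg to mice aged 7 to 8 weeks, and cells were taken at day 21 for WT and *LApcL* and at day 29 for *LApc*. Genotype, mouse, library and, for *LApc*, the day cannot be told apart, the chemistry version (v2 or v3) is not given per library in the sources used here, and no difference between libraries has a replicate check. No p-value is therefore given. All intervals are 95% intervals and cover counting error only.

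Dietary sugars, peptides and amino acids are taken up by the enterocytes that line the villus, and an enterocyte gains these functions as it leaves the crypt and moves towards the villus tip. SGLT1, the product of *Slc5a1*, carries glucose and galactose through the brush border together with sodium. GLUT5 (*Slc2a5*) carries fructose through the same membrane, and GLUT2 (*Slc2a2*) passes sugars on through the basolateral membrane. PepT1 (*Slc15a1*) takes up di- and tripeptides with protons, and B0AT1 (*Slc6a19*) takes up neutral amino acids. The LAT transporters are pairs of chains. Heavy chain 4F2hc (*Slc3a2*) joins several light chains, among them LAT1 (*Slc7a5*), typical of growing cells, and LAT2 (*Slc7a8*), typical of absorptive epithelium. Heavy chain rBAT (*Slc3a1*) joins the light chain encoded by *Slc7a9*. GLUT1 (*Slc2a1*) is the glucose uniporter of many growing cells and of tumors.

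Between 9602 and 14395 barcodes per library were kept after filtering, with medians of 6133 to 10156 unique molecular identifiers (UMIs, 1 per captured molecule). Cells were grouped without using any of the 10 genes. Enterocytes numbered 2812 in WT, 3567 in *LApc* and 1726 in *LApcL*. Crypt cells, with stem and transit-amplifying markers, numbered 3003, 2056 and 1225. Adenoma cells numbered 1349 in *LApc* and 9180 in *LApcL*, and the 5 such barcodes of WT were not used. The 12 enterocyte markers summed to 35066 to 56507 CPM (UMIs of a gene per 1000000 UMIs of all genes) in enterocytes and to 1842 to 3921 CPM in crypt cells. The 7 adenoma transcripts summed to 1205 CPM in *LApc* adenoma cells and 866 CPM in *LApcL* adenoma cells, against 14.1 and 77.5 CPM in the crypt cells of the same libraries. *Lef1* was at 20.9 CPM in *LApc* adenoma cells and 3.62 CPM in *LApcL* adenoma cells. *Apc* was at 48.4 and 37.2 CPM in these cells and was not lower than in crypt cells (22.9 and 22.4 CPM). UMIs were read at the 3′ end, which can lie outside a deleted part, so the *Apc* count does not check the labels. Libraries shared 214 to 318 barcodes in pairs, at most 2.52% of a library. Barcodes over the mitochondrial limit made up 17.7% of *LApc* and 0.541% and 2.38% of WT and *LApcL*.

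In each library, 8 of the 10 transporters were at least 2-fold higher in enterocytes than in crypt cells. These were *Slc5a1*, *Slc2a2*, *Slc2a5*, *Slc15a1*, *Slc6a19*, *Slc7a8*, *Slc3a1* and *Slc3a2*. Such a difference was found in 13.5% of the 8820 genes compared in WT, 13.6% in *LApc* and 13.4% in *LApcL*. Genes were compared where the mean CPM of both sides was at least 5, which 9 members passed in WT and 10 in the other libraries. A 2-fold lower level was found in 17.6%, 21% and 12% of the genes compared in WT, *LApc* and *LApcL*. Among the members it was found in 0 of 9 in WT and in 1 of 10 in each other library, *Slc7a5*. *Slc2a1* differed by less than 2-fold. The median log2 ratio of the members compared was 3.09 in WT, 3.19 in *LApc* and 3.18 in *LApcL*, beside medians of -0.13, -0.20 and -0.07 over all genes compared.

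*Slc5a1* (GRCm38 chr5:33104219-33162870, plus strand) was at 537 CPM (529 to 546) in WT enterocytes. *LApc* enterocytes held 696 CPM (685 to 707) and *LApcL* enterocytes 344 CPM (335 to 354). Crypt cells held 63.2, 72.7 and 46.4 CPM. The enterocyte level was 8.50-fold the crypt level in WT, 9.58-fold in *LApc* and 7.42-fold in *LApcL*. Cells with at least 3000 UMIs were thinned to 3000, and shallower cells were left out. Of these, 62.0% of WT enterocytes held an *Slc5a1* UMI, against 17.1% of WT crypt cells and 12.2% of WT goblet cells, mucus cells taken as a measure of background. Without thinning, at medians of 9688, 10629 and 8968 UMIs, the shares were 87.7%, 48.2% and 30.5%.

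*Slc2a2* (chr3:28697903-28731359, plus strand) had the steepest of the sugar transporter differences in WT, 82.8 CPM (79.5 to 86.1) in enterocytes and 2.76 CPM in crypt cells, a log2 ratio of 4.91 (4.61 to 5.22). In *LApc* the levels were 120 and 4.68 CPM. In *LApcL* they were 33.6 and 1.11 CPM, the latter from 13 UMIs. *Slc2a5* (chr4:150119283-150144169, plus strand) was at 31.8, 88.1 and 33.2 CPM in the enterocytes of WT, *LApc* and *LApcL*, with 2.11, 4.48 and 1.29 CPM in crypt cells. The log2 ratios of *Slc2a5* were 3.91, 4.30 and 4.69.

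*Slc15a1* (chr14:121459621-121505252, minus strand) was at 85.1, 141 and 94.6 CPM in the enterocytes of WT, *LApc* and *LApcL*. Its crypt levels were 4.43, 6.52 and 2.83 CPM, and its log2 ratios were 4.26, 4.44 and 5.06. *Slc6a19* (chr13:73679745-73704865, minus strand) was at 105 CPM (101 to 109) in WT enterocytes, 254 CPM (247 to 260) for *LApc* and 217 CPM (209 to 224) for *LApcL*. Crypt cells held 9.36, 14.9 and 7.97 CPM of *Slc6a19*. Both genes thus had enterocyte levels above the crypt levels of every library, without overlap of intervals.

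The chains of the heteromeric amino acid transporters differed from one another. *Slc3a1* (chr17:85028376-85064236, plus strand) was at 76.9, 87.6 and 76.9 CPM in the enterocytes of WT, *LApc* and *LApcL* and at 10.8, 10.1 and 6.94 CPM in crypt cells. *Slc3a2* (chr19:8706882-8723369, minus strand) was at 164, 151 and 133 CPM in enterocytes and kept 68.0, 57.5 and 59.2 CPM in crypt cells, a difference of 2.42-fold, 2.62-fold and 2.24-fold. *Slc7a8* (chr14:54722209-54781946, minus strand) was at 79.6, 88.3 and 64.7 CPM in enterocytes and 27.4, 30.3 and 23.6 CPM in crypt cells. *Slc7a5* (chr8:121881150-121907694, minus strand) ran the other way. It was at 0.81 CPM in WT enterocytes from 24 UMIs, 1.47 CPM in *LApc* from 33 UMIs and 3.40 CPM in *LApcL* from 51 UMIs, against 6.75, 13.8 and 12.7 CPM in crypt cells. In WT its mean of both sides was under the limit for comparison. *Slc2a1* (chr4:119108711-119137983, plus strand) was at 4.76, 12.4 and 13.1 CPM in enterocytes and 5.34, 9.95 and 8.83 CPM in crypt cells.

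**Figure D1:**
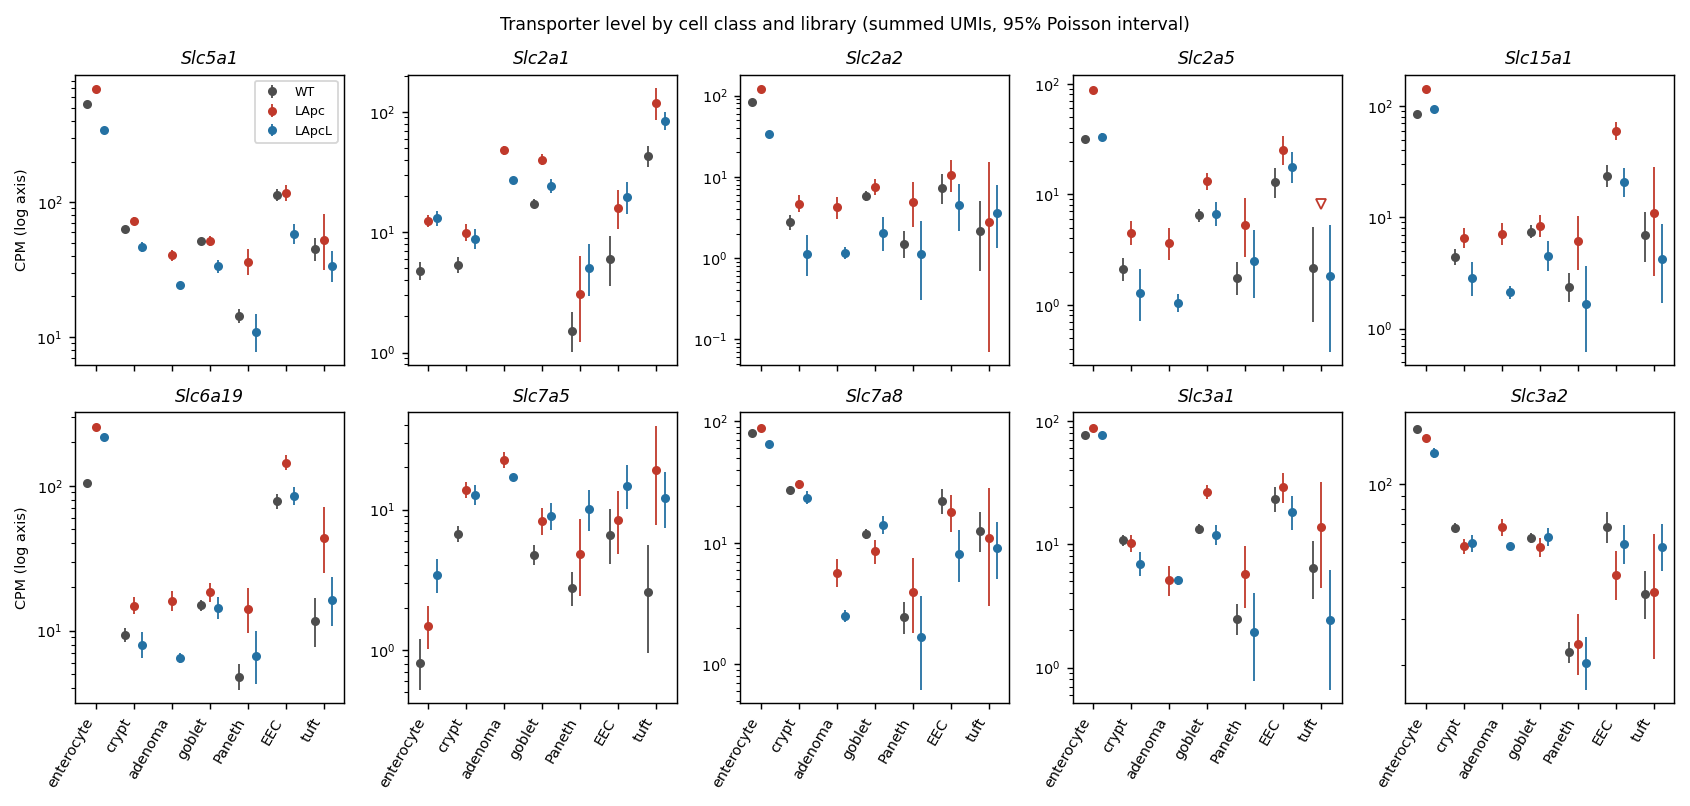
Level of each transporter in CPM (log axis) in 7 cell classes, with WT, *LApc* and *LApcL* as colored points and 95% Poisson intervals as bars. The open triangle gives the upper limit where no UMI was counted, and EEC stands for enteroendocrine cells. *Slc5a1* is at 537, 696 and 344 CPM in enterocytes, while *Slc2a1* is at 4.76, 12.4 and 13.1 CPM there and at 42.7, 118 and 84.3 CPM in tuft cells.

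RNA set free from enterocytes reaches other droplets, and it bears on the low values. *Fabp1*, *Rbp2*, *Apoa4*, *Alpi*, *Fabp6* and *Sis*, which are high in enterocytes, had WT crypt levels that were 2.97% to 11.9% of their WT enterocyte levels. The range was 4.89% to 7.01% for *LApc*, and it was 2.07% to 6.01% for *LApcL*. The 11.9% was *Alpi* alone, and the next in WT was *Apoa4* at 7.39%. Not all 6 genes were confined to enterocytes. *Fabp1* in tuft cells was at 67.4%, 111% and 66.2% of the enterocyte level in WT, *LApc* and *LApcL*. *Sis* in enteroendocrine cells was at 29.8%, 42.1% and 47.0%. The shares of the 6 genes are therefore a rough measure of free RNA. The crypt levels of *Slc2a2* (3.31% to 3.90%), *Slc2a5* (3.88% to 6.64%), *Slc15a1* (2.99% to 5.21%) and *Slc6a19* (3.68% to 8.93%) were under the highest of these genes in their own library. In WT, *Slc6a19* at 8.93% was under *Alpi* alone. Low expression of these 4 transporters in crypt cells cannot be told apart from free RNA here, and neither was tested. *Slc5a1* was at 11.8%, 10.4% and 13.5% in WT, *LApc* and *LApcL* and *Slc3a1* at 14.0%, 11.6% and 9.02%, above all 6 genes in each library apart from *Slc5a1* in WT, which was just under *Alpi*. *Slc7a8* kept 34.3% to 36.4% and *Slc3a2* 38.1% to 44.6% of the enterocyte level, above all 6 of these genes.

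Promoter sequence is shown for the members whose 250 bases before the start held a match to 1 of 5 short motifs of factors known from the intestine. Sequences came from RefSeq on GRCm38.p6, where 9 members had an entry. Both strands were searched, and no motif shares its letters with another. The HNF4 motif, spelled CAAAGTCCA, was found in *Slc3a1*, 39 bases before the start, and in 0.384% of 32851 promoters of this length. The GATA motif, spelled AGATAA, was found in *Slc3a1*, 119 bases before the start, and in 9.99% of all promoters. The E-box, spelled CACGTG, was found in *Slc5a1*, 143 bases before the start, and in 6.02% of them. The CDX2 motif, spelled TTTATGG and held by 2.43% of promoters, was in none of the 9 entries. The same was true of the HNF1 half-site, which is spelled GTTAAT and was held by 6.43%. Capitals mark the matches.
Slc3a1, chr17:85028097-85028346, plus strand: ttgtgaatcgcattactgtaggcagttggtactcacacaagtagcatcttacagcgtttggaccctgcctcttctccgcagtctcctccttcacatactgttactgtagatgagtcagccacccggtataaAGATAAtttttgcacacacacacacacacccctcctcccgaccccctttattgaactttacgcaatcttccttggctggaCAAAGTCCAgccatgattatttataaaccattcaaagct
Slc5a1, chr5:33103969-33104218, plus strand: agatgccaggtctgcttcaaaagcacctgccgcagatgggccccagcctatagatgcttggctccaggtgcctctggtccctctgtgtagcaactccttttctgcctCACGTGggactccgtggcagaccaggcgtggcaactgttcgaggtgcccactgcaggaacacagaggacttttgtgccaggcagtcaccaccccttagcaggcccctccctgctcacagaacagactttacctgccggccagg

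Other genes of the same processes gave the context of these differences. Of 13 absorptive amino acid transport genes, 9 were compared in each library and 8 were at least 2-fold higher in enterocytes. *Slc43a2*, a neutral amino acid transporter, had log2 ratios of 3.68, 3.83 and 4.08. Of 11 amino acid transport genes of growing cells, 4 were compared, and 3 were at least 2-fold lower in WT enterocytes, 2 in *LApc* and 1 in *LApcL*. *Slc1a5*, a glutamine transporter, was at 10.8 CPM in WT enterocytes and 48.2 CPM in WT crypt cells. Of the 14 other sugar transporters, 4 were compared and 4 were higher in each library. *Slc5a11*, a sodium-coupled inositol transporter, had log2 ratios of 4.76, 4.63 and 4.55. Of 7 genes for handling fructose and glucose, 5 were higher in each library. *Khk*, ketohexokinase, the first enzyme of fructose breakdown, was at 505 and 146 CPM in WT. Of 6 genes for ion gradients and scaffolds, 5 were compared, and 3 were higher in WT, 4 in *LApc* and 2 in *LApcL*. In WT and *LApc*, 1 of them was lower, *Atp1b3*, a subunit of the sodium pump, at 16.3 and 43.3 CPM in the enterocytes and crypt cells of WT. Of 16 genes of glycolysis and lactate export, 13 were compared in WT and 14 in each other library, and 1 was higher in WT, 7 in *LApc* and 3 in *LApcL*. In *LApc* and *LApcL*, 1 of them was lower, *Hk2*, a hexokinase, at 18.3 and 37.3 CPM in *LApcL*. *Pdzk1*, a scaffold of brush border transporters, was at 78.6 CPM in WT enterocytes and 3.32 CPM in WT crypt cells.

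Within the enterocytes the absorptive transporters followed *Apoa4*, an apolipoprotein that increases towards the villus tip. Enterocytes with *Fabp6*, an ileal bile acid binding protein, under 1000 CPM were placed in 5 bins of *Apoa4*, from under 100 CPM to at least 10000 CPM. *Slc5a1* went from 184 to 1309 CPM over the bins in WT, from 220 to 1378 CPM in *LApc* and from 83.1 to 838 CPM in *LApcL*. *Slc2a2* went from 15.6 to 301 CPM, from 21.6 to 319 CPM and from 1.33 to 127 CPM. The order of the 5 bins was rising in all 3 libraries for *Slc5a1*, *Slc2a2*, *Slc15a1*, *Slc6a19* and *Slc3a1*.

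The top bin was compared with the bin of 100 to 1000 CPM. For *Slc6a19* the top bin was 9.17-fold higher in WT, 10.4-fold in *LApc* and 18.5-fold in *LApcL*. For *Slc15a1* it was 7.38-fold, 21.1-fold and 14.7-fold higher. *Slc3a1* had smaller differences of 2.36-fold, 3.06-fold and 3.62-fold. The peptide and B0AT1 transporters therefore had a wider range over the bins than the rBAT heavy chain in each library.

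*Slc7a8* and *Slc3a2*, the chains of the LAT2 transporter, had the flattest course of the 8. In WT, *Slc7a8* was at 74.1 CPM in the bin of 100 to 1000 CPM and 155 CPM in the top bin, a log2 ratio of 1.07 (0.83 to 1.30). In *LApcL* it was at 63.5 and 59.4 CPM, a log2 ratio of -0.10 (-0.46 to 0.26). Its highest bin in *LApc* and *LApcL* was that of 3000 to 10000 CPM, with 134 and 93.8 CPM. *Ada*, adenosine deaminase, a gene of the villus tip, was at 22.1 and 705 CPM in the same bins of WT and at 25.3 and 3948 CPM in *LApcL*. *Reg3b*, a gene of the villus base, was at 4016 and 4624 CPM in WT, 21054 and 12935 CPM in *LApc* and 14938 and 6916 CPM in *LApcL*. *Lct*, a gene of the proximal small intestine, was 10.9-fold, 40.2-fold and 16.5-fold higher in the top bin, and *Rbp2*, another, 5.77-fold, 3.64-fold and 3.57-fold. The bins may thus hold gut region as well as villus position, which was not tested.

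**Figure D2:**
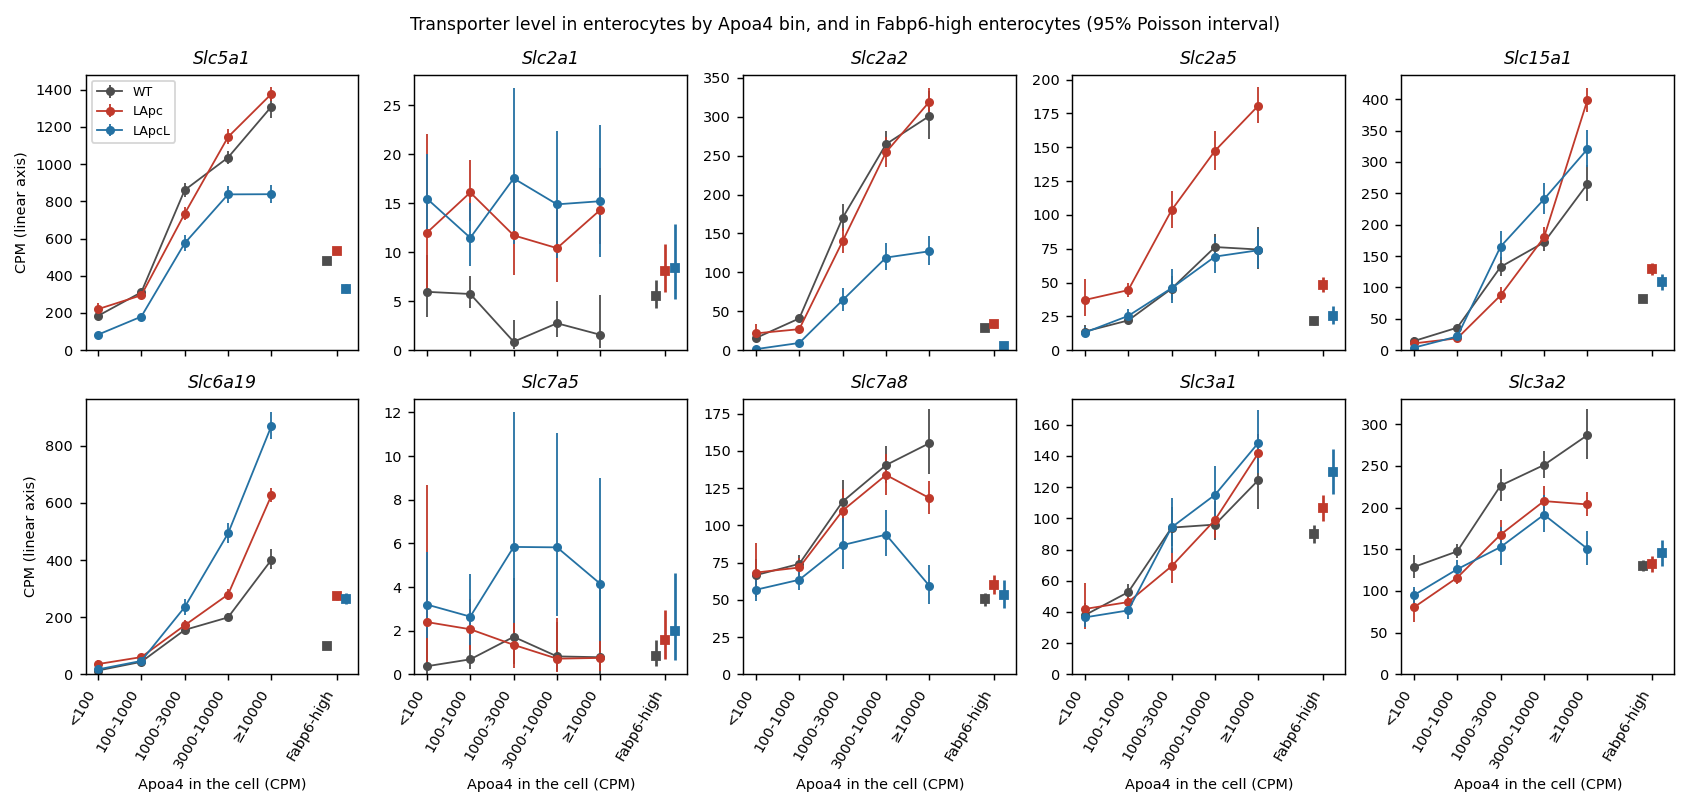
Level of each transporter in CPM (linear axis) in enterocytes binned by the *Apoa4* level of the cell (circles joined by lines) and in *Fabp6*-high enterocytes (squares), with 95% Poisson intervals, for WT, *LApc* and *LApcL*. *Slc6a19* reaches 401, 627 and 870 CPM in the top bin, and *Slc2a2* reaches 301, 319 and 127 CPM.

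Enterocytes with *Fabp6* at 1000 CPM or more, taken as ileal, differed most from the other enterocytes in *Slc2a2*. Goblet cells held 1138, 342 and 190 CPM of *Fabp6* in WT, *LApc* and *LApcL*. Free RNA may thus bring other cells past the limit in WT, which was not tested. *Slc2a2* was at 28.3 CPM in the *Fabp6*-high and 115 CPM in the *Fabp6*-low enterocytes of WT, at 33.7 and 150 CPM in *LApc* and at 4.79 and 39.4 CPM in *LApcL*. The *Fabp6*-low cells were 4.06-fold, 4.46-fold and 8.22-fold higher. With the *Fabp6* limit at 300 CPM the log2 ratios of *Slc2a2*, *Fabp6*-high over *Fabp6*-low, were -0.76 in WT and -0.99 in *LApc*, under 2-fold, and -2.48 in *LApcL*. With the limit at 3000 CPM they were -2.42, -2.83 and -2.66. *Slc2a5* was lower in *Fabp6*-high cells of each library, with log2 ratios of -0.82, -1.08 and -0.44, and so was the amino acid transporter *Slc7a8*, with -0.94, -0.72 and -0.32. At the limit of 300 CPM the ratio of *Slc2a5* in *LApc* was -0.51. *Slc5a1* had log2 ratios of -0.25, -0.49 and -0.07 and *Slc3a2* of -0.50, -0.26 and 0.16, and the *LApcL* intervals of both held 0. *Slc3a1* was higher in them, with log2 ratios of 0.38, 0.40 and 0.96. *Slc15a1* and *Slc6a19* differed by at most 0.36 on the log2 scale between these cells. The number of *Fabp6*-high enterocytes was 1004 in WT, 901 in *LApc* and 296 in *LApcL*.

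In adenoma cells *Slc2a1* was the member at least 2-fold higher than in crypt cells and *Slc7a8* the member at least 2-fold lower, in both libraries. Of the members, 8 were compared in *LApc* and 7 in *LApcL*. A 2-fold higher level was found in 15.2% of all genes compared in *LApc* and 7.72% in *LApcL*, and a 2-fold lower level in 4.94% and 4.12%. The median log2 ratio of the members was 0.12 in *LApc* and -0.30 in *LApcL*, beside 0.20 and 0.18 over all genes compared.

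*Slc2a1* was at 47.9 CPM (43.8 to 52.4) in *LApc* adenoma cells and 9.95 CPM (8.42 to 11.7) in *LApc* crypt cells, 4.82-fold apart. In *LApcL* it was at 27.2 CPM (26.2 to 28.2) and 8.83 CPM (7.20 to 10.7), 3.08-fold apart. At 3000 UMIs per cell, 10.7% of *LApc* adenoma cells and 7.03% of *LApcL* adenoma cells held a UMI of *Slc2a1*, against 3.10% and 2.29% of crypt cells and 2.03% and 4.83% of enteroendocrine cells, the hormone cells. Cells under 3000 UMIs were left out of these shares, and the median of *LApc* enteroendocrine cells was 3281 UMIs. Without thinning the shares were 24.0% and 24.6%, 7.15% and 7.59%, and 5.59% and 10.6%, at medians of 7214 and 11499, 7108 and 9029, and 3281 and 4677 UMIs. When subclusters were made without neighbor correction, the log2 ratio of *Slc2a1* was -0.29 in *LApc* and 0.18 in *LApcL*. The subclusters left as crypt then held 9 and 0 cells of *LApc* and 15 and 3 cells of *LApcL*. Subclusters with 1386 and 672 *LApc* cells, which held 0 and 1 WT cells, were called adenoma. These ratios therefore rest on few crypt cells and on a differently drawn adenoma class. Under the other alternatives the log2 ratio of *Slc2a1* was 1.84 to 2.30 in *LApc* and 1.30 to 1.71 in *LApcL*. Goblet and tuft cells also held *Slc2a1*, at 40.1 and 118 CPM in *LApc*. The 7 tuft markers summed to 82.4 CPM in *LApc* adenoma cells, 6.59 CPM in *LApc* crypt cells and 11021 CPM in *LApc* tuft cells. The 7 goblet markers summed to 3400 CPM in adenoma cells and 2904 CPM in crypt cells of *LApc*, and 5 immune markers to 43.0 and 0.725 CPM. In *LApcL* the sums in adenoma and crypt cells were 28.1 and 12.8 CPM for tuft, 1236 and 1451 CPM for goblet and 1.27 and 0.257 CPM for immune markers. Their part in the *Slc2a1* level was not tested.

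*Slc7a8* was at 30.3 CPM in *LApc* crypt cells and 5.67 CPM (4.31 to 7.33) in *LApc* adenoma cells, a log2 ratio of -2.42 (-2.84 to -2.02). In *LApcL* the levels were 23.6 and 2.50 CPM (2.21 to 2.81), a log2 ratio of -3.24 (-3.48 to -2.99). The adenoma levels were 6.43% and 3.86% of the enterocyte levels. This was just above the highest of the 6 enterocyte genes named above, *Rbp2* (6.39%) in *LApc* and *Fabp1* (3.82%) in *LApcL*. *Slc7a5* was at 22.5 CPM (19.7 to 25.6) in *LApc* adenoma cells and 17.0 CPM (16.3 to 17.8) in *LApcL* adenoma cells, 1.63-fold and 1.34-fold its crypt levels. The heavy chain *Slc3a2* was at 68.3 and 57.7 CPM, with log2 ratios over crypt of 0.25 (0.10 to 0.39) and -0.04 (-0.15 to 0.08).

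The mix of *Slc7a5* and *Slc7a8* UMIs therefore differed between the cell classes. Other light chain genes were left out of the shares below, such as *Slc7a7*, at 132 CPM in WT enterocytes. *Slc7a7* was at 21.4 and 14.1 CPM in the adenoma cells of *LApc* and *LApcL*. *Slc7a5* made up 1.01% of the UMIs of *Slc7a5* and *Slc7a8* in WT enterocytes, 1.64% in *LApc* and 5.00% in *LApcL*. In crypt cells its share was 19.8%, 31.3% and 35.0%. In *LApc* adenoma cells it was 79.9% (74.8% to 84.3%), and *LApcL* adenoma cells had 87.2% (85.7% to 88.6%). The intervals of the classes did not overlap within a library. For the sugar uniporters, *Slc2a1* made up 3.99%, 5.63% and 16.4% of the UMIs of *Slc2a1*, *Slc2a2* and *Slc2a5* in enterocytes, 52.3%, 52.1% and 78.6% in crypt cells and 86.0% and 92.5% in the adenoma cells of *LApc* and *LApcL*. UMIs of the 3′ end count molecules without regard to gene length, but genes can differ in capture. Free RNA from enterocytes may also add to *Slc2a2* and *Slc2a5* in crypt and adenoma cells and to *Slc7a8* in adenoma cells. Its part in these shares was not tested.

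**Figure D3:**
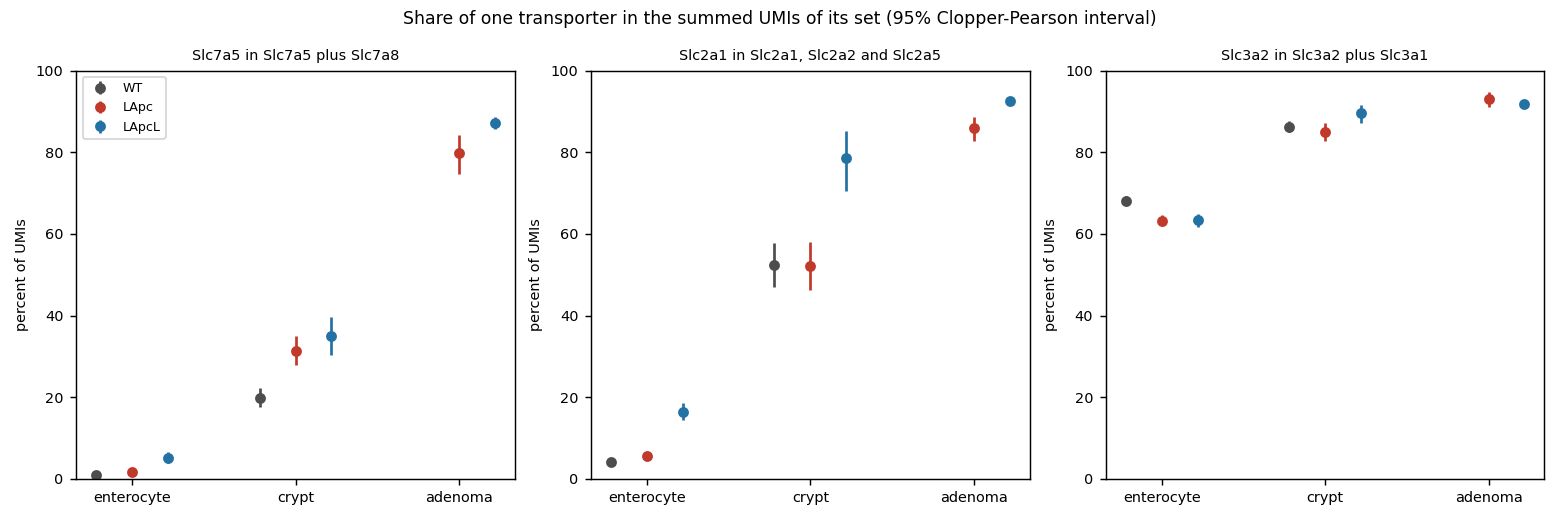
Percent of UMIs held by 1 transporter of a set in enterocytes, crypt cells and adenoma cells, with 95% Clopper-Pearson intervals, for *Slc7a5* beside *Slc7a8*, *Slc2a1* beside *Slc2a2* and *Slc2a5*, and *Slc3a2* beside *Slc3a1*. *Slc7a5* goes from 1.01% in WT enterocytes to 79.9% and 87.2% in adenoma cells.

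The remaining members were lower in adenoma cells than in enterocytes. *Slc5a1* was at 40.5 CPM (*LApc*) and 24.3 CPM (*LApcL*) in adenoma cells, 1.79-fold and 1.91-fold below crypt cells. Of the UMIs of *Slc2a1* and *Slc5a1* in adenoma cells, *Slc2a1* made up 54.2% in *LApc* and 52.8% in *LApcL*. *Slc3a1* was at 5.09 and 5.10 CPM, 1.99-fold and 1.36-fold below crypt cells. With TMM scaling both *Slc5a1* (log2 ratio -1.12) and *Slc3a1* (-1.28) passed 2-fold in *LApc*, and *Slc5a1* (-1.10) did so in *LApcL*. *Slc2a2* (4.21 and 1.16 CPM), *Slc2a5* (3.62 and 1.04 CPM), *Slc15a1* (7.14 and 2.12 CPM) and *Slc6a19* (16.0 and 6.47 CPM) had intervals of the ratio to crypt that held 0 in both libraries. In *LApc* the adenoma levels of these 6 genes were 3.51% to 6.33% of the enterocyte levels, inside the 3.00% to 6.39% of the 6 enterocyte genes named above. In *LApcL*, *Slc5a1* (7.05%) and *Slc3a1* (6.63%) lay above the 1.15% to 3.82% of those genes.

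**Figure D4:**
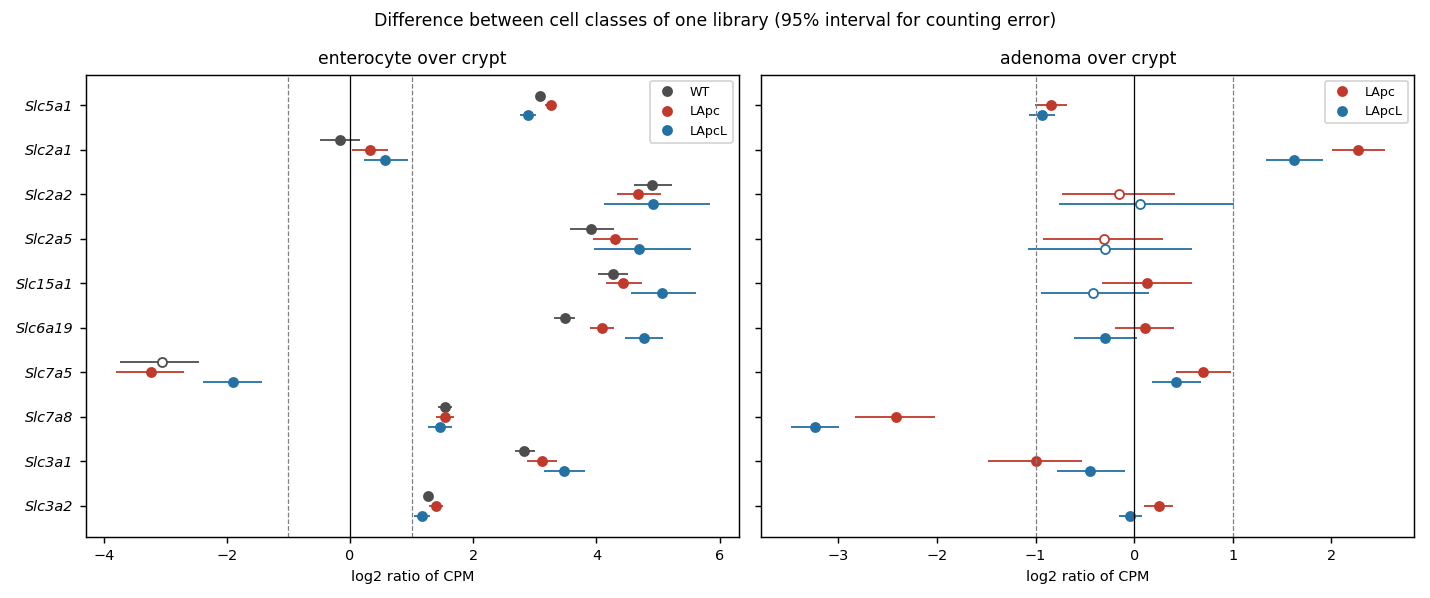
Log2 ratio of CPM for each transporter, enterocyte over crypt (left, 3 libraries) and adenoma over crypt (right, 2 libraries), with 95% intervals for counting error. Dashed lines mark 2-fold, and open points are genes under a mean of 5 CPM. *Slc2a1* has log2 ratios of 2.27 and 1.62 and *Slc7a8* of -2.42 and -3.24 in adenoma cells.

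Other genes of amino acid and sugar use were read in the same adenoma cells. Of 11 amino acid transport genes of growing cells, 6 were compared, and 3 were at least 2-fold higher than in crypt cells in *LApc* and 2 in *LApcL*. *Slc1a4*, a transporter of alanine, serine and cysteine, was at 20.9 CPM in *LApc* adenoma cells and 4.08 CPM in crypt cells, and at 15.8 and 3.94 CPM in *LApcL*. Of 16 genes of glycolysis and lactate export, 15 were compared and 7 were higher in each library. *Slc16a3*, the lactate exporter MCT4, was at 149 CPM in adenoma and 4.35 CPM in crypt cells of *LApc* and at 66.0 and 6.25 CPM in those of *LApcL*. *Pkm*, pyruvate kinase, was at 915 and 208 CPM in *LApc*. Of 7 genes for handling fructose and glucose, 5 of the 6 compared were lower in *LApc* and 4 of the 5 compared in *LApcL*. *Fbp1*, a gluconeogenic phosphatase, was at 4.69 and 26.9 CPM in *LApc* and at 2.48 and 33.3 CPM in *LApcL*. Of 13 absorptive amino acid genes, 8 were compared in *LApc* and 7 in *LApcL*, 3 were lower in each library, and *Slc1a1*, a glutamate and aspartate transporter, was at 3.13 and 28.1 CPM in *LApc*.

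Between the adenoma cells of the libraries, 1 of the 6 members compared was at least 2-fold lower in *LApcL* than in *LApc*, and none was 2-fold higher. Lower levels were found in 8.24% and higher levels in 0.791% of all genes compared. *Slc6a19* was at 16.0 CPM (*LApc*) and 6.47 CPM (*LApcL*), a log2 ratio of -1.31 (-1.56 to -1.06). The enterocyte gene *Rbp2* (523 and 99.5 CPM) differed in the same direction, and its part in the *Slc6a19* value was not tested. With cells classed by marker score the log2 ratio of *Slc6a19* was -0.94. *Slc2a1* was 1.76-fold lower in *LApcL* and *Slc7a5* 1.32-fold lower, short of 2-fold. *Slc2a1* was higher in adenoma cells with *Wfdc18*, a secreted protein gene, at 500 CPM or more than in the rest, at 56.8 and 43.1 CPM in *LApc* and 46.0 and 26.9 CPM in *LApcL*.

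Cycling cells had mitosis genes at 500 CPM or more in sum. Of the light chains *Slc7a5* and *Slc7a8*, they differed from other cells in *Slc7a8* in crypt cells and *Slc7a5* in adenoma cells. *Slc7a8* was higher in cycling crypt cells, at 31.2 and 17.9 CPM in WT, 36.3 and 18.3 CPM in *LApc* and 28.4 and 15.7 CPM in *LApcL*, with log2 ratios of 0.80 (0.56 to 1.05), 0.99 (0.66 to 1.33) and 0.85 (0.45 to 1.27). *Slc7a5* did not separate these crypt cells, with intervals that held 0 in the 3 libraries. In adenoma cells *Slc7a5* was higher in cycling cells, at 27.7 and 18.8 CPM in *LApc* and 18.7 and 14.6 CPM in *LApcL*. *Slc2a1* differed by 0.05 and -0.16 on the log2 scale between cycling and other adenoma cells. Cycling crypt cells were also higher in *Slc3a2*, with log2 ratios of 0.38 (0.24 to 0.52) in WT and 0.37 (0.15 to 0.59) in *LApc*. The *LApcL* interval held 0. In *LApcL* adenoma cells, *Slc3a1* (-0.48, -0.73 to -0.24) and *Slc5a1* (-0.28, -0.39 to -0.17) were lower in cycling cells, and their *LApc* intervals held 0.

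Between the enterocytes of the libraries, *Slc2a1*, *Slc2a5* and *Slc6a19* were at least 2-fold higher in *LApc* than in WT, 3 of the 9 members compared, beside 2.12% of all genes. *Slc2a1* and *Slc6a19* were at least 2-fold higher in *LApcL* than in WT, beside 2.27% of all genes, and *Slc2a2* was at least 2-fold lower, beside 1.55%. No member was 2-fold lower in *LApc*, beside 1.44%. Left out by the limit of 5 CPM was *Slc7a5*, at 0.81, 1.47 and 3.40 CPM in WT, *LApc* and *LApcL* from 24, 33 and 51 UMIs. Its log2 ratio over WT was 0.86 (0.06 to 1.69) in *LApc* and 2.07 (1.34 to 2.84) in *LApcL*. Adenoma cells held 22.5 and 17.0 CPM of *Slc7a5* in these libraries, and their part in its ratios was not tested. These comparisons share the WT library. The mix of enterocytes was not the same, since cells with at least 10000 CPM of *Apoa4* numbered 162 in WT, 884 in *LApc* and 246 in *LApcL*.

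*Slc2a1* was higher than in WT in all 6 groups of enterocytes, the 5 *Apoa4* bins and the *Fabp6*-high cells, in both *LApc* and *LApcL*. The WT levels rest on few UMIs of *Slc2a1*, 141 over all enterocytes and 2 in the top bin (1.57 CPM). With each group given the same weight, a calculation chosen after the data were seen, *Slc2a1* was at 3.73, 12.1 and 13.8 CPM in WT, *LApc* and *LApcL*. Adenoma cells are high in *Slc2a1*, and the 7 adenoma transcripts summed to 0.709, 11.8 and 102 CPM in the enterocytes of WT, *LApc* and *LApcL*, with 2 of 7 at 0 in WT and none at 0 in the others. In the crypt cells they summed to 2.35, 14.1 and 77.5 CPM. Their part in the *Slc2a1* differences from WT, in enterocytes or crypt cells, was not tested. *Slc6a19* was higher than in WT in 6 of 6 groups of both libraries, at 152, 241 and 321 CPM with equal weights, so that its log2 ratio in *LApc* went from 1.27 to 0.67, short of 2-fold. With the mitochondrial limit at 10%, its log2 ratios were 0.92 in *LApc* and 0.91 in *LApcL*, and in *LApcL* it was also short of 2-fold with TMM scaling (0.94) and in *Fabp6*-low enterocytes alone (0.94). *Slc2a5* was higher in 6 of 6 groups of *LApc*, at 93.6 CPM against 42.2 CPM in WT.

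*Slc2a2* was higher than in WT in 0 of 6 groups of *LApcL*. Its log2 ratio over WT was -1.30 (-1.44 to -1.16) over all enterocytes and -1.33 with equal weights. *Slc5a1* was also higher in 0 of 6 groups of *LApcL*, with a log2 ratio of -0.64 (-0.69 to -0.60). In *LApc* the log2 ratio of *Slc5a1* was 0.37 over all enterocytes and 0.04 with equal weights, and that of *Slc2a2* was 0.54 and -0.04. Of 14 glycolysis genes compared, 3 were at least 2-fold higher in *LApc* than WT enterocytes and 1 in *LApcL*, and 0 were lower. *Slc16a3* was at 7.59, 41.6 and 24.8 CPM in the enterocytes of WT, *LApc* and *LApcL*. *Pck1*, a gluconeogenic enzyme gene, was at 30.0, 105 and 97.4 CPM.

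In crypt cells, *Slc7a5* was the member at least 2-fold higher in *LApc* than in WT, at 13.8 and 6.75 CPM, with a log2 ratio of 1.04 (0.76 to 1.31). With TMM scaling the log2 ratio was 0.96, and with the mitochondrial limit at 10% it was 0.99. *Slc7a5* was 1 of 8 members compared, beside 1.47% of all genes, and none was 2-fold lower, beside 0.929%. In *LApcL*, *Slc7a5* was at 12.7 CPM, 1.88-fold the WT level, and 0 of 7 members passed 2-fold upwards or downwards, beside 1.09% and 1.45% of all genes. *Slc2a1* was 1.86-fold and 1.65-fold higher than in WT. *Slc3a2* was 1.18-fold and 1.15-fold lower.

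The genes whose levels were most like those of a member were found by Pearson correlation of log2(CPM + 10) over 20 combinations of library and cell class, as a description, since classes of 1 library share that library and its free RNA. The closest of 4874 genes was *Rdh7* for *Slc5a1* (r = 0.980), *Ace* for *Slc2a2* (0.971), *Gpt* for *Slc15a1* (0.986), *Maoa* for *Slc7a8* (0.983), *Fmo5* for *Slc3a1* (0.965) and *Aoc1* for *Slc3a2* (0.966). For *Slc2a5* it was another member, *Slc15a1* (0.936). For *Slc6a19* it was *Sepp1* (0.965), followed by *Slc15a1* (0.962). *S100a11* was closest to *Slc2a1* (0.929) and *Pla2g12a* to *Slc7a5* (0.871).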

How the data were processed

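The authors deposited UMI counts per gene and cell barcode, made with Cell Ranger 2.1.1 on mm10 (GRCm38) per the submitters' processing notes. The counts were used as deposited. Barcodes in the outer 1% of genes detected or over 20% mitochondrial UMIs were removed, and doublets were removed by Scrublet rank at 0.8% per 1000 barcodes, because its automatic threshold marked 2065, 4 and 755 barcodes. Cells were integrated with Seurat 5.3.0 on 938 features, without the 78 genes of the transporter lists, and clustered at resolution 0.2. Clusters were named by markers. Wnt/TA-like cells were subclustered after mutual nearest neighbor correction, and subclusters with under 10% WT by weighted share were called adenoma. Enterocytes joined clusters 3 (1273, 1456 and 820 cells in WT, *LApc* and *LApcL*), 4 (687, 1290 and 517) and 5 (852, 821 and 389).

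UMIs were summed per library and class and divided by the total. With 1 library per group no test was run. Levels have exact Poisson intervals, shares Clopper-Pearson intervals and ratios exact conditional binomial intervals, at 95%. A gene was called at 2-fold where the mean of both sides was at least 5 CPM. The ratios and intervals were run on simulated Poisson counts. Such counts hold no variation between cells, mice or libraries, so they check the calculation only. TMM (edgeR 4.0.16) and DESeq2 1.42.0 size factors served as alternative scalings. Named were all 10 members, up to 3 genes with the largest ratio per other list and comparison, and the genes most like each member, and 1 gene of these lists is not reported here. A few further marker genes, named for free RNA, the villus and the gut region, were chosen with the data seen. The members and lists were chosen with earlier results of these data known. Gene coordinates came from GENCODE M21. Alternatives are given in the closing section.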

Additional observations from a re-analysis of the deposited data

How the results depend on the processing

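Of 447 values of members past 2-fold that were recomputed under the alternatives, 446 kept their direction, and the exception was *Slc2a1* in *LApc* adenoma over crypt, at -0.29 on the log2 scale without neighbor correction. In that setting the subclusters left as crypt held only 9 and 0 *LApc* cells. Of 547 values under 2-fold, 46 changed sign. TMM scaling moved every ratio by 0.20, 0.29 and 0.11 (log2) for enterocyte over crypt in WT, *LApc* and *LApcL*, by -0.28 and -0.16 for adenoma over crypt, by 0.24 for *LApcL* over *LApc* adenoma and by -0.11 for *LApcL* over WT enterocytes.

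Of the counts of members past 2-fold and the other summary values, 192 stayed near their main value and 34 moved, as follows. With TMM scaling and with DESeq2 size factors alike, 3 members were lower in adenoma than crypt in *LApc* and 2 in *LApcL*, 1 was higher in *LApcL* than WT enterocytes and 0 in *LApc* than WT crypt. Without ribosomal and mitochondrial genes in the total, 1 member was lower in WT enterocytes than crypt, 3 and 2 were lower in adenoma than crypt of *LApc* and *LApcL*, 3 were lower in *LApcL* than *LApc* adenoma, and 2 in *LApc* and 1 in *LApcL* were higher than in WT crypt. With no filter on low counts, 1 was lower in WT enterocytes than crypt, 5 were lower in *LApcL* than *LApc* adenoma, 2 were higher in *LApc* than WT crypt and 1 was lower in *LApcL* than WT crypt. With a mitochondrial limit of 10%, 2 were lower in *LApc* adenoma than crypt, 1 was higher in *LApcL* than WT enterocytes and 0 in *LApc* than WT crypt. With doublets removed at 2 times the rate, and at resolution 0.4, 2 were lower in *LApc* adenoma than crypt. With classes by marker score 0, and with each cell weighing the same 3, were lower in *LApcL* than *LApc* adenoma. With *Fabp6* under 1000 CPM, 1 was higher in *LApcL* than WT enterocytes. Without neighbor correction, 2 were lower in *LApc* enterocytes than crypt, 3 were lower in *LApc* adenoma than crypt, 0 were higher in *LApcL* adenoma than crypt, 3 were lower in *LApcL* than *LApc* adenoma, 5 were higher and 1 lower in *LApc* than WT crypt, and 1 was higher and 1 lower in *LApcL* than WT crypt. Without that correction, the subclusters left as crypt held 9 and 0 cells of *LApc* and 15 and 3 cells of *LApcL*. The crypt values of these libraries in that setting therefore rest on few cells. The cause of the other moves was not tested.

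No paired analysis was possible because each group holds 1 library, and for the same reason no setting without a replicate was run. Low members rest on few UMIs, such as the 13 UMIs of *Slc2a2* in *LApcL* crypt cells.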

Other observations

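Enteroendocrine cells, the hormone cells of the epithelium, held transcripts of several absorptive transporters. *Slc6a19* was at 78.2, 145 and 85.1 CPM in those of WT, *LApc* and *LApcL*, which was 74.6%, 57.0% and 39.3% of the enterocyte levels. *Slc15a1* was there at 23.8, 59.9 and 20.9 CPM and *Slc2a5* at 12.8, 25.2 and 17.8 CPM. The enterocyte gene *Fabp1* was at 8.86% to 13.5% of its enterocyte level in the same cells, and *Sis*, encoding sucrase-isomaltase, at 29.8%, 42.1% and 47.0%.

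*Slc2a1* was highest in tuft cells, chemosensory cells of the epithelium, among the classes of each library, at 42.7, 118 and 84.3 CPM in WT, *LApc* and *LApcL*. These levels rest on 99, 43 and 140 UMIs from 261, 71 and 303 tuft cells. Goblet cells held 17.3, 40.1 and 24.3 CPM. Paneth cells, the antimicrobial cells of the crypt base, held 3.07 CPM in *LApc* from 7 UMIs and 5.01 CPM in *LApcL* from 18 UMIs.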
